A study of Mus musculus with 3 samples.

Results

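Myelo-1 is the authors' name for a cluster of 559 cells among 11132 mouse bone marrow cells profiled by CITE-seq, an assay that counts transcripts and antibody-bound DNA tags in the same cells. The cells were taken by that cluster name alone, which gave 365 of 6796 cells of the male library and 194 of 4336 cells of the female library. They were set chiefly against 953 cells named Gran-2 (598 male, 355 female) and 713 cells named Myelo-2 (373 male, 340 female), the neighbours in the order of the granule genes. All cells came from C57BL/6 mice described as wild-type, and no treatment is named in the labels. Sorted cells carry the label Modified GMP (GMP commonly stands for granulocyte-monocyte progenitor). Hindlimb marrow was enriched on CD117 beads and sorted after staining with DNA-tagged and fluorochrome antibodies, so shares of cells describe the sorted fraction and not marrow. The sources used here do not give the sort gate, the age or the number of mice. Each sex was 1 mRNA library and both shared 1 pooled antibody library, so p-values rest on the agreement of 2 libraries and not on a spread between mice. The basis of the authors' clustering is not stated in these sources, so differences in RNA describe the clusters and are no independent evidence for them.

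Neutrophil precursors fill their granules in an order. Primary (azurophil) granules, with myeloperoxidase and serine proteases such as elastase, are made first, at the promyelocyte stage. Secondary (specific) granules, with lactoferrin and cathelicidin, follow at the myelocyte stage, and gelatinase granules and chemokine receptors come later still. C/EBP epsilon, the product of Cebpe, is required for the secondary granule proteins, and Gfi1 is a repressor that holds down monocyte genes in the granulocyte line.

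Myelo-1 made up 5.37% of male cells (95% interval 4.85% to 5.93%, exact Clopper-Pearson) and 4.47% of female cells (3.88% to 5.13%), intervals that cover counting error only. Its UMIs (unique transcript molecules) summed to 7559213 in the male and 4842795 in the female library. The median Myelo-1 cell held 19945 (male) and 23947.5 (female) UMIs, close to Gran-2 (19246 and 24311) and above Myelo-2 (12673 and 13669.5). In all, 45 barcodes occurred in both libraries, and 6 Myelo-1 cells carried such a barcode. Levels are given as CPM, UMIs scaled to 1000000 of a cluster's summed UMIs in a library; in such sums, fewer cells with a transcript and less of it per cell cannot be told apart. Of 1990 genes with a mean of at least 50 CPM in Myelo-1, 2 were at least 2-fold higher in the female library, Xist and Rpia, and 6 at least 2-fold higher in the male, Prg2, Prss34, Mcpt8, Cpa3, Apoe and Hspa1a.

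All 4 marker genes given for Myelo-1 were present in its cells. At a depth thinned to 4000 UMIs per cell, Fcnb was detected in 86.6% (male) and 88.7% (female) of Myelo-1 cells and Cebpe in 86.6% and 90.7%, while Camp and Elane were detected in 100% of them. Free RNA was read from cells of the cluster named Meg, which lies outside the neutrophil line. Male Meg cells had 1156 CPM of Camp, beside 602 in the cluster named HSCP-2, while female Meg cells had 787 beside 881. Elane had 622 (male) and 688 (female) CPM in Meg, beside 676 and 740 in HSCP-2. For Camp, male Meg cells may thus overstate free RNA. The same may hold for other neutrophil genes, as Ly6g had 20.3 CPM in male Meg cells, beside 2.52 in male HSCP-2 cells. Fcnb was detected in 5.88% (male) and 11.6% (female) of Meg cells and Cebpe in 9.41% and 8.14%, but Camp in 84.7% and 94.2% and Elane in 91.8% and 95.3%. Detection of Camp or Elane thus did not separate the clusters, and their mean counts are used instead. Without thinning, Fcnb was detected in 96.2% and 97.4% of Myelo-1 cells and in 20.0% and 36.0% of Meg cells, whose median depth was 12799 and 15946.5 UMIs.

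The markers followed different courses over the clusters. Elane, neutrophil elastase (chr10:79886312-79888216, GRCm38.p6), had 12354 (male) and 11941 (female) CPM in Myelo-1, against 22362 and 20157 CPM in Gran-2 and 1525 and 1391 CPM in Myelo-2. Camp, the cathelicidin precursor (chr9:109847377-109849456), had 28879 and 28431 CPM in Myelo-1, against 1529.9 and 1502 CPM in Gran-2 and 68861 and 62398 CPM in Myelo-2. For both genes Myelo-1 lay between its neighbours, and no library of one cluster overlapped with another. Cebpe (chr14:54710363-54712174) had 662 and 664 CPM in Myelo-1, against 444 and 409.9 CPM in Gran-2 and 938 and 902 CPM in Myelo-2. Fcnb, which encodes the lectin ficolin B (chr2:28076479-28084910), had 1364 and 1252 CPM in Myelo-1, against 707 and 527 CPM in Gran-2 and 1381 and 1058 CPM in Myelo-2. Its Myelo-1 and Myelo-2 values overlapped, and both ends of the line were far lower, at 82.9 and 57.6 CPM in Gran-1 and 179.6 and 104 CPM in Myelo-4.

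**Figure D1:**
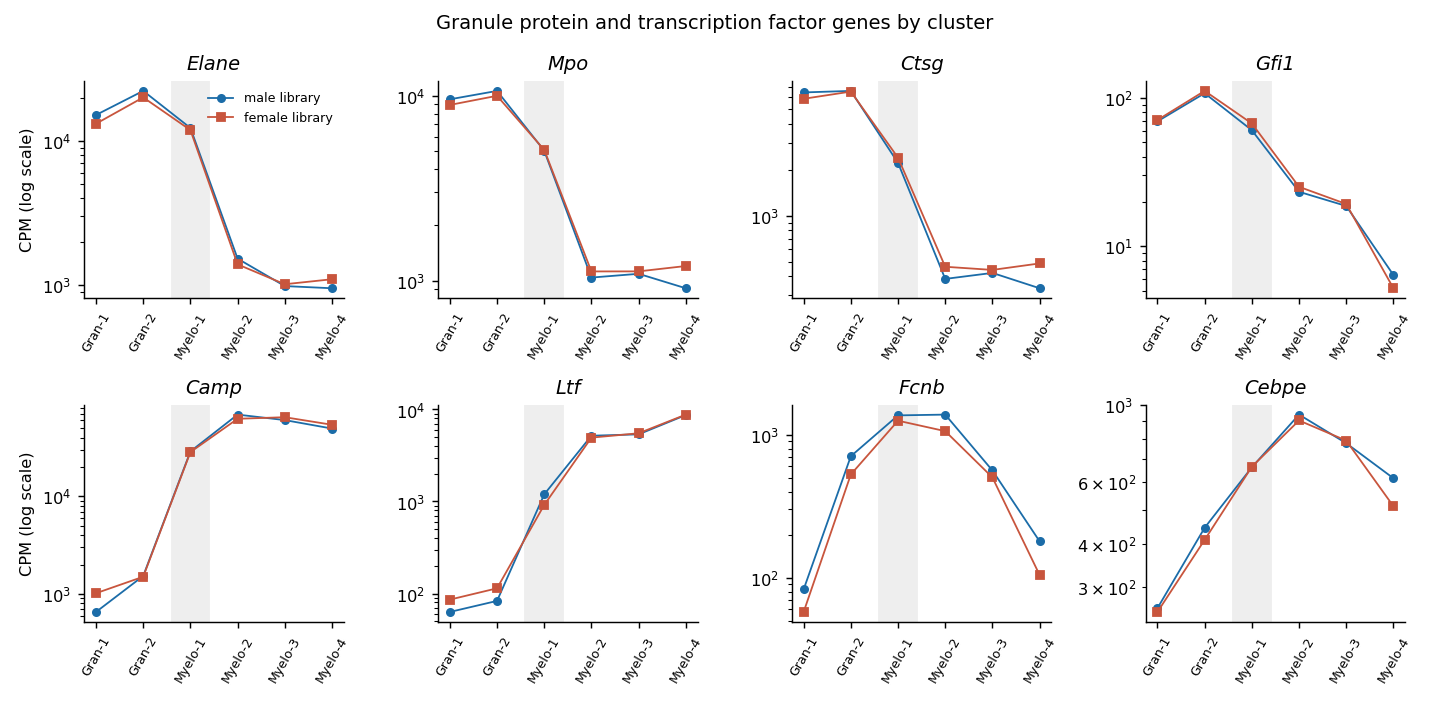
Level of 8 genes in CPM of each cluster's summed UMIs (log axis) in 6 clusters, with the male and the female library as separate points and lines and the Myelo-1 column shaded. Elane, Mpo, Ctsg and Gfi1 are lower in Myelo-1 than in Gran-2 and lower again in Myelo-2, Camp, Ltf and Cebpe take the opposite course between these clusters, and Fcnb is high in Myelo-1 and Myelo-2 and low at both ends (82.9 and 57.6 CPM in Gran-1).

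Promoter windows of 6 granule genes are shown because early and late granule genes moved in opposite directions through Myelo-1. The RefSeq promoter table (GRCm38.p6, 250 bases before to 50 after each gene start) held 7 of the 8 primary and 10 of the 12 secondary granule genes examined. Capitals mark GAGGAAGT, letters of the kind bound by PU.1, in Mpo and Elane, and TTGCNNAA, letters of the kind bound by C/EBP factors, in Ngp, Ltf and Fcnb. Camp is shown because its window holds neither.
Mpo (chr11:87793534-87793833, + strand): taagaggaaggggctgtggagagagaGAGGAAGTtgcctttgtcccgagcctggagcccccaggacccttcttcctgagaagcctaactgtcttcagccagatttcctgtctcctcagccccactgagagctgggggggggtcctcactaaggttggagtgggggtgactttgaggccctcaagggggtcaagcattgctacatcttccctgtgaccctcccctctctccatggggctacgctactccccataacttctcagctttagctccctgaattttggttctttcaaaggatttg
Elane (chr10:79886062-79886361, + strand): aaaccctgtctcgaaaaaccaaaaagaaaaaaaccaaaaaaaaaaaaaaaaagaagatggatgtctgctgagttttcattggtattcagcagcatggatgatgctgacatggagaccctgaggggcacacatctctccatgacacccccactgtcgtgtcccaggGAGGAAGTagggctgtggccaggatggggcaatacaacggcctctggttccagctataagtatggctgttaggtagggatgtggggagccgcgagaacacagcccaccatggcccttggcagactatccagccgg
Camp (chr9:109849407-109849706, - strand): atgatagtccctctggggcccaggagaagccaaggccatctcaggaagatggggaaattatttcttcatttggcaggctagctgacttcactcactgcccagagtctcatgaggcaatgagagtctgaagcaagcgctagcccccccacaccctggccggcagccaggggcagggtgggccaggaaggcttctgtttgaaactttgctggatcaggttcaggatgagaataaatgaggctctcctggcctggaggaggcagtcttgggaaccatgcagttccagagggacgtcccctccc
Ngp (chr9:110419558-110419857, + strand): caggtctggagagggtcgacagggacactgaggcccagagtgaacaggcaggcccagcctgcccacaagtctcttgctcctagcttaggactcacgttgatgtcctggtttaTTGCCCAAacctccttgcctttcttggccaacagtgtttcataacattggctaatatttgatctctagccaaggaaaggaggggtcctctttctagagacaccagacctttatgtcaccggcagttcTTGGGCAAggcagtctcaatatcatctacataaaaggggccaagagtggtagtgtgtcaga
Ltf (chr9:111019042-111019341, + strand): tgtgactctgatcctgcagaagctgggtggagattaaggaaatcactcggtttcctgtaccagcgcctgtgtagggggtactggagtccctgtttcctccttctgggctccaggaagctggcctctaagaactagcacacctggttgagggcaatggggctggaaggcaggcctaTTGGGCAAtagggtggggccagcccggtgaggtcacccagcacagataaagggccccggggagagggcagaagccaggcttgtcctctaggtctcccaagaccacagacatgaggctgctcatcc
Fcnb (chr2:28084829-28085128, - strand): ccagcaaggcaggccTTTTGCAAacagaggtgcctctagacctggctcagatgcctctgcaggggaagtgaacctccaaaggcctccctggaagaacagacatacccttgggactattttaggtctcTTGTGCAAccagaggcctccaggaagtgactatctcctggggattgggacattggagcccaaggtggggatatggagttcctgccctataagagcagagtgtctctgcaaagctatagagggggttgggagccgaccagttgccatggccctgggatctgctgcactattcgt

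Each window was searched on both strands. GAGGAAGT lay 224 bases before the start of Mpo and 85 before that of Elane, and TTGCNNAA lay 138 and 11 bases before Ngp, 75 before Ltf, and 235 and 123 before Fcnb. GAGGAAGT was found in 4 of 7 primary granule genes (Mpo, Elane, Prtn3 and Ctsc), in 2 of 10 secondary granule genes and in 3.20% of 32851 promoters. TTGCNNAA was found in 1 of 7 (Ms4a3), in 5 of 10 (Ngp, Ltf, Lcn2, Mmp8 and Fcnb) and in 10.8% of promoters. AGGAAGT, which every GAGGAAGT contains, was in 5 of 7 and 4 of 10, and in 9.35% of all. TTNNGNAA, which every TTGCNNAA also matches when read on the opposite strand, was in 1 of 7 and 8 of 10, and in 40.7% of all. GCAAT, which can overlap TTGCNNAA, was in 3 of 7 and 6 of 10, and in 26.4% of all. AAATCNNNG, letters of the kind bound by Gfi1, was in 0 of 7 and 1 of 10, and in 10.6% of all. These 6 patterns were all that were searched, and a match is a run of letters and not a measured binding site.

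Against Gran-2, secondary granule and calprotectin genes were higher in Myelo-1, while primary granule, protein-folding and nucleolar genes were lower. In edgeR's quasi-likelihood test on the summed counts, with the library as a block, 3566 of 10043 genes passed an adjusted p of 0.05 (35.5%), 1808 higher (18.0%) and 1758 lower in Myelo-1 (17.5%). Changes of at least 2-fold were mostly upward, with 478 genes higher (4.76%) and 79 lower (0.787%). Scaled by total UMIs in place of edgeR's TMM factors, with a median shift of -0.16 (log2), the counts were 1201 higher and 3148 lower. DESeq2 called 477 higher and 411 lower.

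Against Myelo-2, the same groups took the opposite sign. Primary granule, protein-folding and nucleolar genes were higher in Myelo-1, and secondary granule and calprotectin genes were lower. Mitotic genes were lower too. Of 9211 genes tested, 4470 passed (48.5%), 2177 higher (23.6%) and 2293 lower (24.9%). At least 2-fold, 720 were higher (7.82%) and 450 lower (4.89%). Scaled by total UMIs, with a median shift of 0.44, the counts were 4901 higher and 772 lower, and DESeq2 called 776 and 903. Camp, Ngp, S100a8 and S100a9 together took 18.0% (male) and 17.7% (female) of all UMIs in Myelo-1, against 3.49% and 3.33% in Gran-2 and 41.1% and 41.3% in Myelo-2, which sets the CPM of every other gene. Values beside a fold change are therefore scaled CPM, divided by the TMM factors of that pair, and Myelo-1 has other scaled values in each comparison. Both comparisons use the same Myelo-1 sums and are not independent of each other.

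Primary granule genes were lower than in Gran-2 in 8 of 8 cases, with a median log2 fold change of -0.64 beside -0.00179 for all genes. Elane had 13201 (male) and 12536 (female) scaled CPM in Myelo-1, against 21339 and 18929 in Gran-2. Mpo, myeloperoxidase, had 5391 and 5352 in Myelo-1, against 10132 and 9381 in Gran-2. Ctsg, cathepsin G, had 2377 and 2526 in Myelo-1, against 6313 and 6148 in Gran-2. Both Myelo-1 libraries lay below both Gran-2 libraries in all 3 genes. The log2 fold changes (± SE, worked back from the test's F value) were -0.64 ± 0.02 for Elane, -0.86 ± 0.02 for Mpo and -1.35 ± 0.03 for Ctsg, the widest of the list. They were -0.63 ± 0.02 for Prtn3, proteinase 3, -0.60 ± 0.03 for Ms4a3, a membrane protein gene of granulocyte-monocyte progenitors, and -0.69 ± 0.03 for Nkg7, a granule membrane protein gene.

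Against Myelo-2, 8 of 8 were higher in Myelo-1, with a median of 1.76 beside -0.0125 for all genes. Elane had 10621 (male) and 10201 (female) scaled CPM in Myelo-1, against 1804 and 1615 in Myelo-2. Mpo had 4337 and 4355 in Myelo-1, against 1231 and 1304 in Myelo-2. The groups did not overlap, and the fold changes were 2.61 ± 0.04 for Elane, 2.18 ± 0.04 for Prtn3, 2.01 ± 0.05 for Ctsg and 1.78 ± 0.04 for Mpo. For Mpo the Myelo-2 level was near that of free RNA. At 4000 UMIs per cell, Mpo averaged 20.9 (male) and 21.1 (female) UMIs in Myelo-1 and 4.20 and 4.51 in Myelo-2, beside 3.08 and 3.42 in Meg cells. Elane was further above it, with 5.39 and 5.04 in Myelo-2, beside 2.34 and 2.84 in Meg cells.

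Secondary granule genes moved the other way. Of 12 genes, 11 passed the filter on low counts and Olfm4 did not. All 11 tested were higher than in Gran-2, with a median of 3.43, and all 11 were lower than in Myelo-2, with a median of -2.16. With total UMI scaling, 9 of 11 were lower than in Myelo-2 and 1 was higher, Fcnb. Camp had 30858 (male) and 29846 (female) scaled CPM in Myelo-1, against 1459.9 and 1411 in Gran-2. Ngp, neutrophilic granule protein, had 15680.1 and 15152 in Myelo-1, against 652 and 896 in Gran-2. Ltf, lactoferrin, had 1278 and 963 in Myelo-1, against 79.3 and 107 in Gran-2. Every Myelo-1 value was far above every Gran-2 value, with fold changes of 4.40 ± 0.02 for Camp, 4.33 ± 0.03 for Ngp and 3.60 ± 0.04 for Ltf. Lcn2, the siderophore-binding lipocalin 2, was at 3.75 ± 0.03, and Chil3, a chitinase-like protein, at 3.32 ± 0.04.

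The low side of some of these folds lay near the level in Meg cells, which may overstate free RNA in the male library. At 4000 UMIs per cell, Ngp averaged 54.5 (male) and 55.7 (female) UMIs in Myelo-1 and 2.53 and 3.80 in Gran-2, beside 2.44 and 2.50 in Meg cells. Ltf averaged 4.06 and 3.15 in Myelo-1 and 0.314 and 0.451 in Gran-2, beside 0.306 and 0.221 in Meg cells. The means of other genes in Gran-2 were further above those of Meg cells: Camp averaged 5.57 and 6.16 in Gran-2, beside 3.59 and 3.14 in Meg cells. That Camp mean was carried in part by few cells, as the 10 highest held 26.2% (male) and 21.9% (female) of its UMIs. Without thinning, the median Gran-2 cell held 14 and 27 Camp UMIs, about as many as a Gran-1 cell (14 and 28). Chil3 averaged 1.09 and 0.910 in Gran-2, beside 0.282 and 0.360 in Meg cells, and Fcnb 2.73 and 2.22, beside 0.0588 and 0.116.

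Against Myelo-2, Ltf had 1028 (male) and 784 (female) scaled CPM in Myelo-1 and 6133 and 5739 in Myelo-2. Lcn2 had 2502 and 2110.0 in Myelo-1, against 14147 and 13589.8 in Myelo-2. Camp had 24828 and 24287 in Myelo-1, against 81456 and 72436 in Myelo-2. No library overlapped, and the fold changes were -2.72 ± 0.04 for Ltf, -2.59 ± 0.04 for Lcn2, -2.24 ± 0.04 for Ngp and -1.65 ± 0.04 for Camp; differences between these genes were not tested. Fcnb had the smallest change of the 11, with 1173 and 1069.7 in Myelo-1 and 1634 and 1229 in Myelo-2, a fold change of -0.34 ± 0.04. Its direction turned with total UMI scaling, to 0.11 (edgeR adjusted p = 0.0136), and DESeq2 did not call it (adjusted p = 0.0707). Against Gran-2, Fcnb was at 1.25 ± 0.03.

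**Figure D2:**
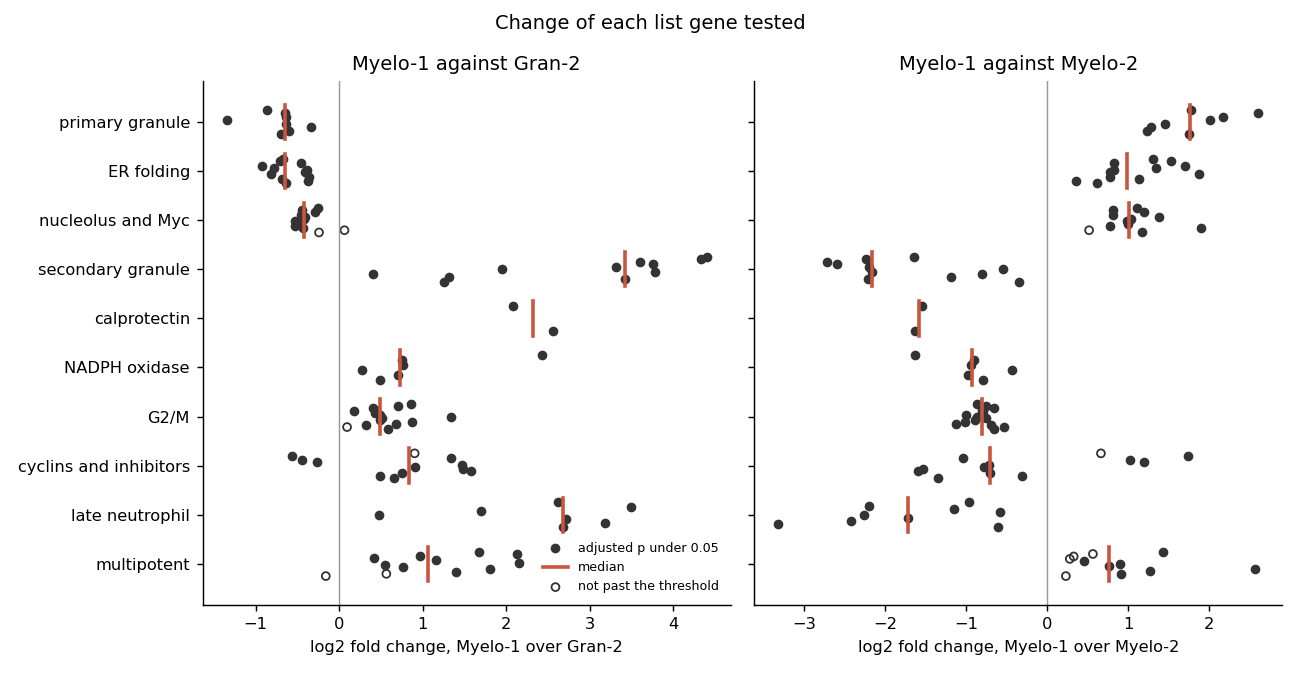
Log2 fold change (x axis) of each tested gene of 10 lists, Myelo-1 over Gran-2 on the left and Myelo-1 over Myelo-2 on the right; filled points passed an adjusted p of 0.05, open points did not, and red bars are list medians. Primary granule genes lie below 0 on the left and above 0 on the right (medians -0.64 and 1.76), secondary granule genes the other way, and multipotent genes mostly above 0 in both.

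S100a8 and S100a9, the subunits of calprotectin, were the most abundant transcripts of Myelo-1. S100a8 had 88054 (male) and 86310.4 (female) scaled CPM in Myelo-1, against 21208 and 19899 in Gran-2, a fold change of 2.09 ± 0.02. In the comparison with Myelo-2 it had 70847 and 70234 in Myelo-1 and 205006 and 207765 in Myelo-2, a change of -1.55 ± 0.04. S100a9 changed by 2.57 ± 0.02 against Gran-2 and -1.63 ± 0.04 against Myelo-2. Both subunits thus stood between the neighbouring clusters, as did Tmsb4x, thymosin beta 4, at 0.56 ± 0.02 and -0.78 ± 0.04.

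Genes of later neutrophil stages were low in Myelo-1 but above Gran-2. Of 12, 7 passed the filter on low counts against Gran-2 and all of these were higher (median 2.68), and 9 passed it against Myelo-2 and all of these were lower (median -1.72). Genes that enter the test through the cluster where they are high had to differ, so these counts only describe the list. Mmp9, gelatinase B, had 19.6 (male) and 9.10 (female) scaled CPM in Myelo-1, against 1.99 and 2.93 in Gran-2, and was at -0.97 ± 0.16 against Myelo-2. Ly6g, which encodes the neutrophil surface protein Ly-6G, had 71.2 and 52.7 in Myelo-1, against 3.98 and 7.60 in Gran-2, and was at -2.19 ± 0.07 against Myelo-2. Padi4, an enzyme that citrullinates histones, was at 2.72 ± 0.20 and -1.72 ± 0.12.

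Genes outside these groups were also among the largest changes in genes with at least 50 CPM. Lyz2, lysozyme, was at 3.32 ± 0.03 against Gran-2 and -2.22 ± 0.04 against Myelo-2. Ifitm6, of the interferon-induced transmembrane family, was at 3.64 ± 0.09 and -2.44 ± 0.05. Cd177, a neutrophil surface protein gene, is not outside them, as it was counted above with the secondary granule genes. It had 162 (male) and 150.0 (female) scaled CPM in Myelo-1, against 9.62 and 13.6 in Gran-2. Among the largest decreases against Gran-2 were Dmkn (-1.32 ± 0.06), Gstm1, a glutathione transferase (-0.96 ± 0.03), Cst7, cystatin F (-0.92 ± 0.04), Ifngr1, an interferon gamma receptor chain (-0.91 ± 0.05), and Alas1, the first enzyme of heme synthesis (-0.91 ± 0.04). Each of these 5 was higher than in Myelo-2, from 0.70 ± 0.07 for Alas1 to 2.28 ± 0.12 for Dmkn. Srgn, the granule proteoglycan serglycin, had 1539 and 1531 scaled CPM in Myelo-1, against 233 and 243 in Myelo-2, a change of 2.69 ± 0.05.

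Genes of protein folding in the endoplasmic reticulum moved with the primary granule genes. All 12 were lower than in Gran-2 (median -0.65) and all 12 higher than in Myelo-2 (median 0.98), with the same counts under total UMI scaling. Calr, the chaperone calreticulin, had 996 (male) and 809 (female) scaled CPM in Myelo-1, against 1551 and 1388 in Gran-2. In the comparison with Myelo-2 it had 801 and 658 in Myelo-1 and 261 and 246 in Myelo-2. Manf, a secreted factor of the unfolded protein response, was at -0.69 ± 0.04 and 1.14 ± 0.06. Pdia4, a disulfide isomerase, was at -0.92 ± 0.07 and 1.71 ± 0.12, and Sdf2l1, a chaperone cofactor, at -0.82 ± 0.04 and 1.88 ± 0.07.

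Nucleolar genes and Myc showed the same order. Of 12, 10 were lower than in Gran-2 and none was higher (median -0.43), and 11 were higher than in Myelo-2 and none was lower (median 1.01). Npm1, nucleophosmin, had 967 (male) and 842 (female) scaled CPM in Myelo-1, against 1096 and 1106 in Gran-2. In the comparison with Myelo-2 it had 778 and 685 in Myelo-1 and 318 and 318 in Myelo-2. Nop10, a component of small nucleolar ribonucleoproteins, was at -0.50 ± 0.04 and 0.99 ± 0.05. The ribosomal protein genes Rpl41 (-0.23 ± 0.02 and 0.84 ± 0.04) and Rps29 (-0.19 ± 0.02 and 0.59 ± 0.04), which were among the 10 most abundant transcripts, had the same signs.

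Mitotic genes took the order of the secondary granule genes. Of 15 G2/M genes, 14 were higher than in Gran-2 (median 0.49) and 15 lower than in Myelo-2 (median -0.80). Total UMI scaling left 12 and 14 of these calls, and DESeq2 made 9 and 15. Hmgb2, a chromatin protein of dividing cells, had 2467 (male) and 2508 (female) scaled CPM in Myelo-1, against 1571 and 1523 in Gran-2. In the comparison with Myelo-2 it had 1985 and 2041 in Myelo-1 and 4261 and 4533 in Myelo-2. Ube2c, a ubiquitin-conjugating enzyme of mitotic exit, was at 0.88 ± 0.04 and -1.01 ± 0.05. S phase genes had no common direction. Against Gran-2, 3 of 15 were higher and 7 lower, with 0 calls in DESeq2, and against Myelo-2 5 were higher and 4 lower, or 11 and 2 with total UMI scaling. The shares over all genes were 18.0% higher and 17.5% lower against Gran-2, and 23.6% and 24.9% against Myelo-2.

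Cyclins and cell cycle inhibitors split. Of 12, 8 were higher and 3 lower than in Gran-2, and 3 higher and 8 lower than in Myelo-2, or 4 and 5 with total UMI scaling. Ccnd3, cyclin D3, had 281 (male) and 272 (female) scaled CPM in Myelo-1, against 112 and 106 in Gran-2, and was at -1.04 ± 0.05 against Myelo-2. Cdkn2d, an inhibitor of CDK4 and CDK6, had 106 and 112 in Myelo-1, against 36.7 and 36.1 in Gran-2, and was at -1.59 ± 0.06 against Myelo-2. The kinase genes Cdk4 and Cdk6 took the other order, at -0.45 ± 0.05 and -0.27 ± 0.06 against Gran-2 and 1.02 ± 0.07 and 1.19 ± 0.09 against Myelo-2. The Cdk6 call against Gran-2 was lost with DESeq2 (adjusted p = 0.139) and without the library block (edgeR adjusted p = 0.0522).

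The 6 genes of the phagocyte NADPH oxidase, which makes superoxide, were all higher than in Gran-2 (median 0.73) and all lower than in Myelo-2 (median -0.92), with 5 of 6 and 5 of 6 called under total UMI scaling. Cyba, the small membrane subunit, had 1480.4 (male) and 1459 (female) scaled CPM in Myelo-1, against 927 and 821 in Gran-2, and was at -0.90 ± 0.04 against Myelo-2. Rac2, the GTPase of the complex, was at 0.49 ± 0.03 and -0.80 ± 0.04. Cybb, the catalytic subunit, named here after its values were seen, had 281 and 268 in Myelo-1, against 50.1 and 52.1 in Gran-2, the widest change of the 6 at 2.43 ± 0.06.

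Regulators of the granulocyte line did not move as 1 group. Of 15 in the table, 9 were higher and 5 lower than in Gran-2, and 6 higher and 7 lower than in Myelo-2, or 8 and 5 with total UMI scaling. Among all genes tested, 18.0% were higher and 17.5% lower than in Gran-2, and 23.6% and 24.9% than in Myelo-2. Cebpe had 707 (male) and 697 (female) scaled CPM in Myelo-1, against 424 and 385 in Gran-2, a change of 0.80 ± 0.04. In the comparison with Myelo-2 it had 569 and 567 in Myelo-1 and 1109 and 1047 in Myelo-2, a change of -0.92 ± 0.04. Gfi1 took the opposite course to Cebpe. It had 64.6 and 70.5 in Myelo-1, against 102 and 104 in Gran-2 (-0.62 ± 0.07), and was at 0.94 ± 0.11 against Myelo-2. Cebpa, which encodes the C/EBP factor required for the earliest granulocyte progenitors, had 57.2 and 61.8 in Myelo-1, against 82.0 and 95.4 in Gran-2, and was at 1.56 ± 0.12 against Myelo-2. Lmo4, a LIM-domain cofactor gene, was at 1.35 ± 0.06 and -1.10 ± 0.06, and Spi1, which encodes PU.1, at 0.28 ± 0.04 and -0.54 ± 0.05. With total UMI scaling Spi1 did not pass against Myelo-2 (edgeR adjusted p = 0.115).

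Irf8, which directs monocyte and dendritic cell fate, was higher in Myelo-1 than in both neighbours. It had 45.2 (male) and 51.6 (female) scaled CPM in Myelo-1, against 27.1 and 21.5 in Gran-2 (0.96 ± 0.10). In the comparison with Myelo-2 it had 36.4 and 42.0 in Myelo-1 and 18.9 and 19.3 in Myelo-2 (1.03 ± 0.12). These are low levels beside 727 and 754 CPM in the cluster named cMoP, and Gran-1, at 43.7 and 52.3 CPM, was like Myelo-1 (42.3 and 49.1 CPM). The 10 highest Myelo-1 cells held 40.9% of 320 male UMIs and 47.5% of 238 female UMIs. At 4000 UMIs per cell, Irf8 was detected in 8.49% (male) and 17.0% (female) of Myelo-1 cells, beside 7.06% and 8.14% of Meg cells, so the male share was near background.

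Some genes of other lineages were higher in Myelo-1 than in both neighbours too. Of 14 multipotent progenitor genes, 10 of 12 tested were higher than in Gran-2 (median 1.06) and 7 of 11 tested higher than in Myelo-2 (median 0.77), with none lower. DESeq2 called 3 and 3 higher, and total UMI scaling gave 8 higher and 1 lower against Gran-2 and 11 higher against Myelo-2. Their summed level was 254 (male) and 173 (female) CPM in Myelo-1, against 109.7 and 135 in Gran-2 and 94.1 and 86.0 in Myelo-2. Sox4, a factor of early progenitors, had 53.9 and 29.7 scaled CPM in Myelo-1, against 13.4 and 13.4 in Gran-2. Cd34, a progenitor surface protein gene, was at 1.40 ± 0.12 and 0.92 ± 0.14. Of 9 basophil, eosinophil and mast cell genes, 7 were higher than in Gran-2 and 7 of 8 tested higher than in Myelo-2, where 1 was lower. Most of these calls were lost elsewhere: 3 were higher than in Gran-2 with DESeq2 and 2 without the library block, and 1 and 3 higher than in Myelo-2. Their summed level differed between the libraries of Myelo-1, at 693 and 199 CPM, against 338 and 279 in Gran-2 and 258 and 144 in Myelo-2. Of 14 monocyte genes, 8 were higher and 2 lower than in Gran-2, and 7 higher and 2 lower than in Myelo-2, with 377 and 393 CPM in sum in Myelo-1, against 256 and 290.4 in Gran-2 and 364 and 428 in Myelo-2. Of 8 dendritic cell genes, 4 were tested and 3 were higher in each comparison, but 0 against Gran-2 with DESeq2. DESeq2 called 4 monocyte genes higher than in Gran-2. Lymphoid genes summed to 2.78 and 1.86 CPM in Myelo-1. Low genes of these lists, too, may enter the test only through the cluster where they are high, so the counts only describe the lists.

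Immediate early genes, which respond to handling, differed from Gran-2. Of 13 stress and immediate early genes tested, 11 were higher and 1 lower than in Gran-2 (median 0.45), and 5 higher and 5 lower than in Myelo-2 (median -0.01). DESeq2 and the fit without the library block each called 6 higher than in Gran-2, and total UMI scaling gave 10 higher and 1 lower than in Myelo-2. Fos had 236 (male) and 302 (female) scaled CPM in Myelo-1, against 174 and 229.9 in Gran-2, and was at 0.17 ± 0.06 against Myelo-2, with neither call kept without the library block (edgeR adjusted p = 0.0575 and 0.284). Of 8 macrophage genes, 6 were tested, and 5 were higher than in Gran-2 (median 2.82). Against Myelo-2, 4 were lower and 1 higher (median -0.79). DESeq2 called 2 of 4 macrophage genes higher than in Gran-2, and 1 of 5 higher and 1 lower than in Myelo-2. Vcam1, named here after its values were seen, was the gene higher than in Myelo-2 and did not pass against Gran-2. It had 84.3 (male) and 114 (female) CPM in Myelo-1, against 96.9 and 126 in Gran-2 and 27.6 and 25.5 in Myelo-2. C1qa, a complement subunit gene also named after its values were seen, was low. It had 36 (male) and 12 (female) UMIs in Myelo-1, against 8 and 4 in Gran-2. Axl and Cd5l, the other genes of the macrophage list, were below the filter. Of 7 interferon response genes tested against Gran-2, 4 were higher and none lower, and of 6 tested against Myelo-2, 1 was higher and 3 lower; DESeq2 called 1 higher than in Gran-2 and none against Myelo-2. Of 12 glycolysis genes, 1 was higher and 4 lower than in Gran-2 and 2 higher and 5 lower than in Myelo-2, or 0 and 10, and 10 and 0, with total UMI scaling. For all the lists of this paragraph, the shares over all genes were 18.0% higher and 17.5% lower against Gran-2. Against Myelo-2 they were 23.6% and 24.9%. Of 7 erythroid and megakaryocyte genes tested against Gran-2, 4 were higher, and of 5 against Myelo-2, 3, with 1 and 0 called by DESeq2. As with the late neutrophil genes, low macrophage, interferon response and erythroid genes may enter the test only through the cluster where they are high. Their counts only describe the lists.

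Surface receptor genes did not move as 1 group. Of 19 tested, 8 were higher and 4 lower than in Gran-2, and of 18, 4 were higher and 9 lower than in Myelo-2, or 9 and 5 with total UMI scaling. Over all genes, 18.0% were higher and 17.5% lower than in Gran-2, and 23.6% higher and 24.9% lower than in Myelo-2. DESeq2 called 5 higher and 2 lower than in Gran-2, and 3 and 4 against Myelo-2. Itgb2, the beta chain that pairs with CD11b, was at 1.45 ± 0.08 and -1.28 ± 0.07. Fcgr3, a low-affinity receptor for IgG, was at -0.64 ± 0.05 and 0.23 ± 0.07, the second not called by DESeq2 (adjusted p = 0.219). Of 6 tested genes of granule packing and protease inhibition, 3 were higher and 2 lower than in Gran-2, and 2 higher and 4 lower than in Myelo-2. Among these the stefin gene Stfa1 belongs to a family of near-identical copies, so its counts are uncertain.

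Several of the genes of other lineages were carried by few cells. In the male library, the 10 highest Myelo-1 cells held 95.4% of the 1403 UMIs of Prg2, an eosinophil granule gene, and 92.9% of the 1074 UMIs of Prss34, a basophil protease gene named here after its values were seen. In the female library, they held 95.4% of the 327 UMIs of Cd74, the class II invariant chain, and 1 cell alone held 281 of them. A class II chain gene, H2-Aa, named here after its values were seen, had 156 of its 167 female UMIs in 1 cell. Without the male library, Prg2 was at -1.04 against Gran-2 and -0.14 against Myelo-2, so its higher call rests on that library. DESeq2 called neither Prg2 (adjusted p = 0.992 and 0.473) nor Cd74 against Gran-2 (0.467), and without the library block Prg2 did not pass against Gran-2 (edgeR adjusted p = 0.344). Sox4 was less concentrated, with 31.8% of 381 male UMIs and 51.8% of 137 female UMIs in the 10 highest cells. No doublet caller was run, and the part of mixed barcodes was not tested.

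Few genes had their highest level in Myelo-1. Of 3890 genes with at least 50 CPM in any of the 17 clusters, 5 did so in both libraries (0.129%), against 175 in Gran-2 and 64 in Myelo-2. The count was as low in other clusters, with 4 in Myelo-3 and 6 in Mono. The 5 in Myelo-1 were Desi1, Mogat2, Itm2b, 1700020L24Rik and Arpp19, at 1.37, 1.22, 1.07, 1.05 and 1.02 times the next highest cluster. These ranks use CPM with no TMM scaling. On the scaled values Desi1 had 61.9 (male) and 66.5 (female) in Myelo-1, against 68.5 and 59.9 in Myelo-2, and did not pass there (edgeR adjusted p = 0.935). The other 4 were below Myelo-2 on these values, Mogat2 at -0.17 ± 0.08 without passing, and Itm2b at -0.29 ± 0.04, 1700020L24Rik at -0.38 ± 0.06 and Arpp19 at -0.42 ± 0.05 with a call.

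Single Myelo-1 cells spread over the distance between the neighbouring clusters. Elane, Mpo, Prtn3 and Ctsg together took a median of 2.37% (male) and 2.41% (female) of the UMIs of a Myelo-1 cell, against 4.89% and 4.61% in Gran-2 and 0.298% and 0.341% in Myelo-2. The interquartile range in Myelo-1 ran from 1.32% to 3.73% (male) and from 1.42% to 3.61% (female). Camp, Ngp, Ltf, Lcn2 and Chil3 together took a median of 4.26% and 4.37% in Myelo-1, against 0.161% and 0.242% in Gran-2 and 14.7% and 13.6% in Myelo-2. Their interquartile range in Myelo-1 ran from 2.10% to 7.21% (male) and from 2.37% to 7.55% (female), so cells of 1 library differed far more than the libraries' medians did.

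Few Myelo-1 cells fell inside the range of a neighbour for the secondary granule genes. The range between the 5 and 95 percentiles of Gran-2 cells held 38 male Myelo-1 cells (10.4%) and 10 female ones (5.15%), and that of Myelo-2 held 22 (6.03%) and 5 (2.58%). For the primary granule genes, 112 male (30.7%) and 52 female cells (26.8%) lay inside the Gran-2 range, and 49 (13.4%) and 4 (2.06%) inside the Myelo-2 range. Myelo-1 cells with more primary granule transcripts had fewer secondary ones, with a Spearman rho of -0.60 over 365 male cells and -0.72 over 194 female cells. Cells of a library share its free RNA, and both shares have the cell's UMIs as denominator.

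**Figure D3:**
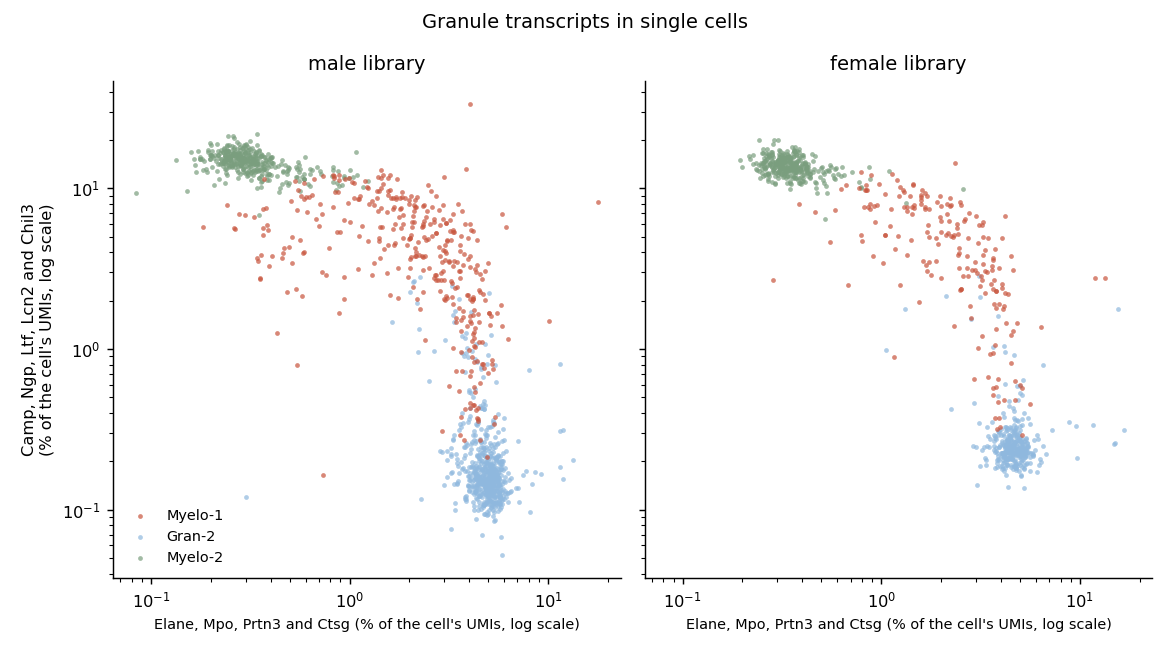
Share of each cell's UMIs from 4 primary granule genes (x axis) against that from 5 secondary granule genes (y axis), both in percent on log axes, for Myelo-1, Gran-2 and Myelo-2 cells of the male (left) and female (right) library. Myelo-1 cells form a band from the Gran-2 cells at lower right to the Myelo-2 cells at upper left, with a rho of -0.60 (male) and -0.72 (female) among them.

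The Myelo-1 cells of each library were put in order of their Camp share and cut into 4 parts of near equal cell number, a split chosen after the data were seen. From the lowest to the highest part, Ctsg had 3260.1, 2754, 1921 and 1039.7 CPM in the male library and 3624, 3193, 1920.0 and 753 CPM in the female. Gfi1 had 89.3, 60.2, 50.9 and 45.3 CPM (male) and 100.3, 72.5, 58.4 and 34.2 CPM (female). Both genes stepped down at every part in both libraries, and so did the summed endoplasmic reticulum genes, with 4282, 4125, 3415 and 2213 CPM (male) and 4089, 3907, 2731 and 1915 CPM (female). These CPM carry no TMM scaling, and the Camp share rises along this order by construction. Across Myelo-1 cells, the joint share of Camp, Ngp, Ltf, Lcn2 and Chil3 also rose with that of S100a8 and S100a9. Larger shares for these genes leave fewer UMIs to other genes and by themselves lower the CPM of those. The part of this in the falls was not tested. Fcnb took no straight course, with 1469.6, 905, 1168 and 1994 CPM (male) and 1188, 870.2, 1108 and 1926 CPM (female), lowest in the second part of both libraries. Irf8 was highest in that part, with 32.0, 75.5, 41.6 and 15.8 CPM (male) and 49.7, 80.9, 46.4 and 16.7 CPM (female). Multipotent genes peaked there too, with sums of 207, 391, 298 and 96.5 CPM (male) and 191, 228, 180.5 and 81.4 CPM (female).

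Surface proteins were read with 4 antibodies. Ly-6C, carried by monocytes and immature neutrophils, had its highest median raw count of all 17 clusters in Myelo-1, at 15163 (male) and 26086.5 (female) per cell. Gran-2 cells had medians of 8689.5 and 13963, Myelo-2 cells 8779 and 13698.5, and cMoP cells, the next highest, 10509 and 21762. The log2 ratio of medians was 0.85 ± 0.07 against Gran-2 (SD, n = 2 libraries) and 0.86 ± 0.10 against Myelo-2. With 2 libraries a group, an exact sign-flip permutation test over the pairs of clusters within a library cannot go below p = 0.5 (two-sided), so no test is given. The direction against Gran-2 depends on the scale: it was -0.15 as a share of the cell's 4 antibody counts and -0.39 when centred within the cell. Against Myelo-2 it was 0.37 and 0.83 on these scales. Of these scales, the counts alone put Myelo-1 above cMoP, with a log2 ratio of 0.40, against -0.29 as a share and -2.08 centred. The 4 antibodies summed to a median of 19353 and 32902 in Myelo-1, against 9886.5 and 16096 in Gran-2 and 13528 and 23939.5 in Myelo-2.

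The transcript Ly6c2, which encodes Ly-6C, had 2543 (male) and 2729.8 (female) scaled CPM in Myelo-1, against 3886 and 3713 in Gran-2, a change of -0.53 ± 0.03. This was opposite in sign to the raw antibody count (0.85), but had the sign of the antibody share (-0.15) and of the centred value (-0.39). Against Myelo-2, Ly6c2 was at 0.27 ± 0.04. Ly6c1 and Ly6c2 are near-identical copies, so reads may be split between them. Among Myelo-1 cells, the antibody count and the Ly6c2 UMI count had a rho of 0.58 (365 male cells) and 0.38 (194 female cells), and the antibody had a rho of 0.38 and 0.33 with the cell's UMIs.

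CD11b, the integrin chain encoded by Itgam, had medians of 2587 (male) and 4657 (female) in Myelo-1, against 712 and 1277 in Gran-2 and 3239 and 6414 in Myelo-2. Its log2 ratio was 1.86 ± 0.00447 against Gran-2 and -0.39 ± 0.10 against Myelo-2 (SD, n = 2), with the same signs on the other scales. Itgam had 63.6 and 62.0 scaled CPM in Myelo-1, against 19.1 and 19.7 in Gran-2, and was at -1.04 ± 0.08 against Myelo-2, so protein and transcript had the same order. CD117, the Kit receptor, had medians of 180 and 250 in Myelo-1, against 164 and 287 in Gran-2 and 82 and 125 in Myelo-2. On counts the libraries differed in its direction against Gran-2, while on the other scales both were lower, at a mean of -1.07 as a share and -1.27 centred. Against Myelo-2 it was at 1.07 ± 0.09, or 0.47 as a share and 0.93 centred. Kit transcripts passed in neither comparison, at -0.16 ± 0.12 and 0.23 ± 0.16, but passed in both with total UMI scaling, at -0.32 and 0.68.

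**Figure D4:**
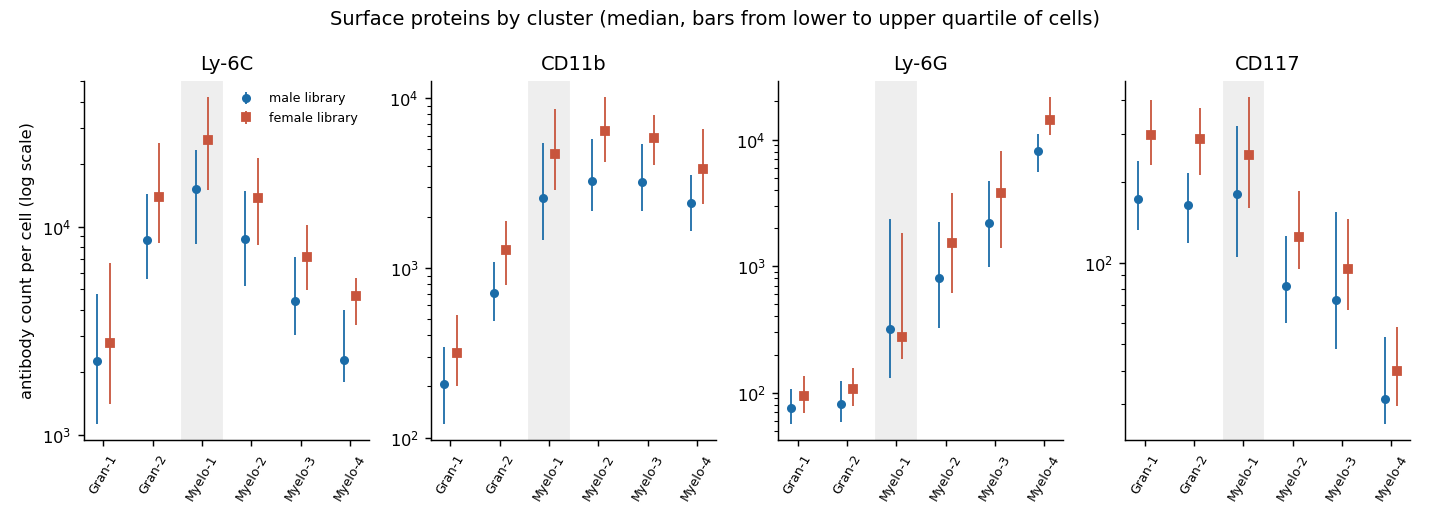
Antibody count per cell (log axis) for Ly-6C, CD11b, Ly-6G and CD117 in 6 clusters; points are medians, bars run from the lower to the upper quartile of cells, the male and female library stand side by side, and the Myelo-1 column is shaded. Among the clusters shown, the raw Ly-6C count is highest in Myelo-1, at 15163 (male) and 26086.5 (female), CD11b is higher than in Gran-2, and the Ly-6G bars of Myelo-1 are long, from 130 to 2341 in the male library.

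Ly-6G, the protein of maturing neutrophils, spread widely among Myelo-1 cells. Its median was 318 (male) and 277 (female) in Myelo-1, against 81 and 107 in Gran-2 and 812 and 1533.5 in Myelo-2. The quartiles of Myelo-1 were 130 and 2341 (male) and 183 and 1828 (female). Counts above 1000, a bound set after the data were seen, occurred in 130 of 365 male Myelo-1 cells (35.6%, interval 30.7% to 40.8%) and 59 of 194 female ones (30.4%, 24.0% to 37.4%). In Gran-2 the shares were 2.01% and 1.69%, and in Myelo-2 43.7% and 62.9%. Ly-6G and CD117 were high in the same Myelo-1 cells, with a rho of 0.68 (male) and 0.65 (female). Both also went with the cell's UMIs, with a rho of 0.51 and 0.49 for Ly-6G and 0.62 and 0.60 for CD117.

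Myelo-1 cells with different Ly-6G counts had different transcripts. In 4 parts from the lowest to the highest Ly-6G count, also chosen after the data were seen, Ly6g had 4.28, 3.47, 44.9 and 177 CPM in the male library and 9.36, 12.3, 20.5 and 126 CPM in the female. Ltf had 147, 299.9, 1686 and 2069 CPM (male) and 154, 349, 923 and 1776 CPM (female). Fcnb had 2025, 2175, 994 and 685 CPM (male) and 1688, 1805, 1347 and 527 CPM (female). Ltf was highest and Fcnb lowest in the cells with most Ly-6G, in both libraries. Elane had 18809, 16576, 8037 and 9285 CPM (male) and 15736, 14354, 9571 and 9877 CPM (female), lower in the upper 2 parts. Camp varied less, with 20990.1, 32444, 31283 and 28700.3 CPM (male) and 25528, 28196, 33915 and 25907 CPM (female).

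Multipotent and late neutrophil transcripts were both highest in the cells with most Ly-6G. Multipotent genes summed to 87.0, 113, 338 and 386 CPM (male) and 94.6, 116, 169 and 263 CPM (female). Late neutrophil genes summed to 59.9, 68.9, 140.0 and 525 CPM (male) and 68.6, 71.6, 122 and 298 CPM (female). The median CD117 count was 104, 119, 281 and 362 (male) and 160, 194, 313 and 472 (female). The order by Ly-6G count fixes the place of that protein, and Ly6g is itself a late neutrophil gene; without it, the late neutrophil sums were 55.6, 65.4, 95.2 and 348 CPM (male) and 59.3, 59.4, 102 and 172 CPM (female). Depth moved with them: median UMIs per cell were 16074, 18910, 24430 and 22880 (male) and 19710, 21462.5, 25732 and 33377 (female), and the part of depth in these differences was not tested.

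**Figure D5:**
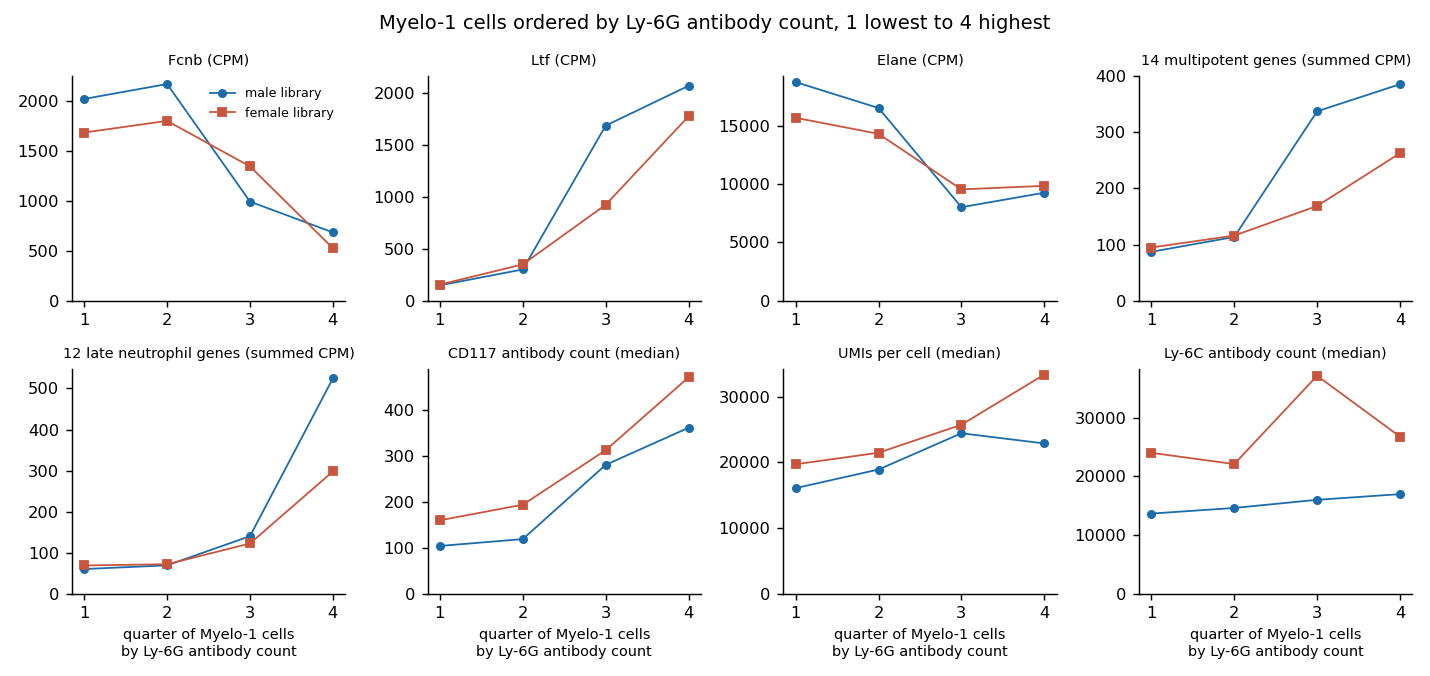
Myelo-1 cells of each library in 4 parts by Ly-6G antibody count, 1 lowest to 4 highest (x axis), with CPM of summed UMIs for Fcnb, Ltf, Elane and 2 gene lists, and medians per cell of CD117, UMIs and Ly-6C (y axes, from 0). Fcnb is lowest and Ltf, multipotent genes, late neutrophil genes and CD117 are highest in part 4 of both libraries (Fcnb 685 CPM there and 2025 CPM in part 1 of the male library).

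The tests were repeated with only the Myelo-1 cells at or below their library's median Ly-6G count, an alternative added after the data were seen. The granule groups held: 7 of 8 primary granule genes were lower than in Gran-2 and 8 of 8 higher than in Myelo-2, and 10 of 11 secondary granule genes were higher than in Gran-2 and 10 of 11 lower than in Myelo-2, with Fcnb now higher at 0.26. Ltf was at 1.53 and -4.80 in these cells. The multipotent genes did not hold: 0 of 10 were higher and 1 lower than in Gran-2 (median 0.12), and 0 higher and 1 lower than in Myelo-2 (median -0.20). Gfi1 was at -0.14 against Gran-2, Sox4 at 0.31 and 0.03, Cd34 at 0.31 and -0.15, and Irf8 at 0.13 and 0.23, and none of these passed. Late neutrophil genes were higher than in Gran-2 in 2 of 7 (median 0.41). Dendritic cell genes gave 0 higher and 1 lower of 4 against Gran-2 (median -0.82). The CD117 ratio was -0.69 against Gran-2 and 0.41 against Myelo-2. Monocyte genes gave 2 higher and 3 lower against Gran-2, and 2 and 2 against Myelo-2. Fewer multipotent, late neutrophil and monocyte genes were thus called higher than in Gran-2 when the Myelo-1 cells with more Ly-6G, also the deeper ones, were left out. Ly-6G, depth, cell number and mixed barcodes cannot be told apart in this split. With fewer cells, higher calls over all genes fell too, from 1808 to 1172. Ly6g is itself a late neutrophil gene, so the selection by Ly-6G set part of the loss in that list.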

How the data were processed

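The authors deposited whole-number UMI counts per gene and cell, antibody tag counts per cell, a natural log value per antibody and a cluster name per cell. Cell Ranger 2.1.0 and the mm10 build are named in the submitters' processing notes; the sources used here do not describe the cell calling, doublet removal or clustering. All 44528 deposited natural log values equalled ln((count + 1) / (sum of the 4 antibody counts + 1)) within 1e-08, so they are log shares. Of 28692 gene IDs, 28339 were paired with a symbol.

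Counts of Myelo-1, Gran-2 and Myelo-2 cells were summed per library, taken from the ending of the cell name, with each cluster and library as 1 sum (4 sums a comparison, 1 residual degree of freedom). The male library is replicate 1 and the female replicate 2, numbered in accession order. Each comparison was fitted over all genes with edgeR 4.0.16 (R 4.3.3; filterByExpr, TMM, quasi-likelihood test, library as block, Benjamini-Hochberg adjustment, threshold 0.05), a step tested on simulated data. Alternatives were DESeq2 1.42.0, total UMI scaling, other filters, no library block, a fit over 12 clusters with at least 50 cells per library, thinning to 4000 UMIs, and leaving out shared barcodes, the 5% of cells with most UMIs, or a library. The library block pairs sums of the same mRNA library, and its effect stands in the closing section. The SE beside an edgeR fold change is its absolute log2 value divided by the square root of the test's F value. It is not a spread between libraries. Antibody values are medians per cell, compared as log2 ratios. Python 3.11.15, numpy 2.4.6, pandas 2.3.3 and scipy 1.17.1 were used. Promoters and positions are from RefSeq tables of GRCm38.p6.

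The members, gene lists and tests were chosen with earlier results of these data known. Named genes were 11 set genes, the most abundant members of each list, the 8 largest changes each way per comparison among genes with at least 50 CPM, the genes highest in Myelo-1 and its 10 most abundant transcripts; others are said to be chosen after their values were seen.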

Additional observations from a re-analysis of the deposited data

How the results depend on the processing

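The library was a block in the reported tests; with no replicate block, 1220 genes were higher and 945 lower than in Gran-2, and 1813 higher and 1895 lower than in Myelo-2. Of the 66 genes whose fold changes are given, 4 lost their call against Gran-2 and 1 against Myelo-2 without it. DESeq2 lost 5 of these calls in each comparison.

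Against Gran-2, the counts higher and lower were 477 and 411 with DESeq2, 1201 and 3148 with total UMI scaling, 720 and 538 with cells thinned to 4000 UMIs, which leaves fewer UMIs, and 1172 and 1097 with the Myelo-1 cells of lower Ly-6G. Against Myelo-2 they were 776 and 903, 4901 and 772, and 1047 and 1037 in the first 3 of these. The Ly-6C ratio against Gran-2 was -0.15 as a share, -0.39 centred and 0.72 in cells of lower Ly-6G, and against Myelo-2 it was 0.37 as a share and 0.73 in those cells. Leaving out 1 library gave Ly-6C ratios of 0.80 to 0.90 against Gran-2 and 0.79 to 0.93 against Myelo-2, and shares of cells of 4.47% to 5.37%.

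Some genes changed sign, and the cause was not tested. Without the male library Prg2 was at -1.04 against Gran-2 and -0.14 against Myelo-2, and without the female library at 1.40 and 3.50. In cells of lower Ly-6G, Mmp9 was at -1.46 and Cd74 at -0.88 against Gran-2, and Cd74 was at -0.71, Apoe at -0.46, Kit at -0.34, Cd34 at -0.15, Fcnb at 0.26, Desi1 at 0.35 and Mogat2 at 0.35 against Myelo-2. With total UMI scaling against Myelo-2, Fcnb was at 0.11, Desi1 at 0.44, Mogat2 at 0.28, Itm2b at 0.16, 1700020L24Rik at 0.0706 and Arpp19 at 0.0374. Desi1, which did not pass against Myelo-2, was also at 0.00102 with no filter, 0.0242 with at least 10 CPM, 0.0603 thinned, 0.0126 without shared barcodes and 0.10 without the 5% of cells with most UMIs.

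With 1 library per sex, no test over mice was possible, and low genes such as Irf8 and Kit were limited by their UMIs. No doublet caller was run.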
